A study of Mus musculus with 15 samples.

Results

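UCSF033_000201, UCSF033_000203, UCSF033_000220 and UCSF033_000221 are 4 of the 2500 probes of a custom microRNA array. They were chosen by a list of IDs drawn up from their course in these same samples: a lower signal through 65 h of activation and a partial return afterwards. The course itself is therefore given as a description, with no test, and supports nothing beyond these arrays. The files used here pair no probe ID with a microRNA name or a sequence, so the probes appear by ID, and the labelled cell type could not be checked against marker microRNAs. Each of the 4 has a single spot per array, as have 192 probes in all, with IDs from 118 to 309, and none of the 192 is in the authors' deposited value table.

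Samples were CD4 T cells isolated with CD4-coated beads from spleen and lymph nodes of C57/B6 mice aged 6 to 8 weeks. Naive cells, given no treatment, had 2 arrays. Cells held on plates coated with anti-CD3 and anti-CD28 had 2 arrays at each of 6, 12, 24, 42 and 65 h. Cells taken off the plates after 65 h and kept in IL-2 until day 7 had 1 array, and such rested cells put back on the antibodies for 18 h had 2. The labels do not say whether mice were pooled, or whether arrays of the same group stand for different cultures or animals.

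MicroRNAs are short RNAs that guide Argonaute proteins to messenger RNAs by base pairing and lower the output of the paired transcripts. Signals through CD3 and CD28 drive a resting T cell to grow and divide, a step in which its microRNA content is known to be remodelled. IL-2 keeps activated T cells alive after the antigen receptor signal ends, and a further encounter with the same stimulus starts a recall response. In bulk RNA, a lower signal from fewer cells holding a microRNA cannot be told apart from less of it per cell.

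The 15 arrays lay on 2 slides, each holding 1 array per group, with day 7 on slide 1 only. The first 42 h array, on slide 2, stood apart: 49.6% of its spots were marked non-uniform, against at most 0.134% elsewhere, and its median spot brightness was 466 against 21 to 23. It is left out of the values below unless named. The other 14 arrays detected 640 to 950 probes above background, and their number limits the precision of every value. All 60 readings of the 4 probes (15 arrays) were well above background, with 0 saturated or marked as outliers. The lowest ratio of a spot to its local background was 4.75, for UCSF033_000203 on the slide 1 restimulated array. Each spot kept its place on all arrays, and the spots of any 2 of the 4 probes lay at least 27.5 spot positions apart.

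The signal is given on a log2 scale on which 0 is the 75th percentile of an array, taken over the 571 probes detected on all 14 arrays. All 4 probes passed the filter on dim probes. Their signal was lower at each successive time through 65 h on both slides, higher at day 7 than at 65 h, and lower again after restimulation than at day 7. At 65 h the mean signal was 7.77% to 10.15% of naive. The single day 7 array, on slide 1, stood at 18.96% to 33.8% of the naive mean of both slides. Compared with the naive array of slide 1 alone it was 3.31 to 4.47-fold lower. After restimulation the mean signal was 11.5% to 15.7% of naive.

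UCSF033_000201 read 2.32 in naive cells on slide 1, then 2.07, 1.96 and 1.1034 at 6, 12 and 24 h, -0.15 and -0.95 at 42 and 65 h, 0.59 at day 7 and -0.14 after restimulation. On slide 2 the same probe read 1.99 in naive cells, then 1.68, 1.46 and 0.51 at 6, 12 and 24 h, -1.40 at 65 h and -0.89 after restimulation. The naive arrays overlapped those at 6 h but lay above both at 12 h, while the 24 h arrays lay below all of these. Both 65 h arrays lay below every other array, by a small margin for the slide 2 restimulated array.

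UCSF033_000221 read 2.09 in naive cells on slide 1, then 1.82, 1.63 and 0.76 at 6, 12 and 24 h, -0.50 and -1.16 at 42 and 65 h, 0.32 at day 7 and -0.40 after restimulation. Its slide 2 readings were 1.77 in naive cells, then 1.53, 1.201 and 0.26 at 6, 12 and 24 h, -1.59 at 65 h and -1.16 after restimulation. The naive arrays again overlapped those at 6 h and lay above both at 12 h, and the 24 h arrays lay below all of these. The slide 2 restimulated array and the slide 1 array at 65 h were level, so those groups met at their edges.

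UCSF033_000220 read 1.37 in naive cells on slide 1, then 1.0024, 0.70 and -0.09 at 6, 12 and 24 h, -1.49 and -2.20 at 42 and 65 h, -0.63 at day 7 and -1.27 after restimulation. Its slide 2 readings were 1.32 in naive cells, then 1.09, 0.69 and -0.25 at 6, 12 and 24 h, -2.05 at 65 h and -1.62 after restimulation. Its groups did not overlap, except that the single 42 h value fell between the restimulated arrays.

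UCSF033_000203 read -0.15 in naive cells on slide 1, then -0.32, -0.71 and -1.30 at 6, 12 and 24 h, -2.74 and -3.79 at 42 and 65 h, -2.31 at day 7 and -3.19 after restimulation. Its slide 2 readings were 0.32 in naive cells, then 0.05, -0.25 and -1.10 at 6, 12 and 24 h, -3.41 at 65 h and -2.88 after restimulation. The 6 h arrays overlapped both naive and 12 h arrays. Both 65 h arrays lay below both restimulated arrays, and all of these lay below 24 h.

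Between the arrays on slide 1 and slide 2 the 4 probes differed by different amounts, a feature the choice of probes did not use. The slides hold different arrays of each group, so slide and sample cannot be told apart. In the 6 groups with an array on each slide, UCSF033_000201 was lower on slide 2 in 6 of 6, by a mean difference of -0.50 log2 and a range from -0.75 to -0.33. UCSF033_000221 was also lower in 6 of 6, by a mean of -0.45. UCSF033_000203 went the other way, higher on slide 2 in 6 of 6 groups by a mean of 0.36, while UCSF033_000220 was higher in 2 of 6 with a mean of -0.05. Differences within a slide are therefore given beside those of group means.

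Early in activation the differences were small. At 6 h the 4 probes differed from naive by -0.16 to -0.37 log2 on slide 1 and by -0.23 to -0.32 on slide 2. At 12 h these ranges were -0.36 to -0.67 and -0.53 to -0.62. The SE of the fitted differences, from limma over all 882 tested probes, was 0.20 to 0.36 log2 for these probes and the differences of group means at 6 h lay between -0.30 and -0.22. The difference at 12 h was -0.65 (SE 0.20) for UCSF033_000220 and -0.45 to -0.56 for the others. Limma called 0 of the 4 at either time, where 0.567% of tested probes were called lower at each time. Before adjustment, the limma p was under 0.05 for 0 listed probes at 6 h and for 42 of the 882 tested. For 12 h these counts were 1 and 124. The choice of probes used every contrast of these groups, so this and the later counts of calls among the 4 are descriptions beside the background and nothing is read from them.

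By 24 h all 4 probes were at least 1 log2 below naive, a size shared by 10.5% of the 882 tested probes. The difference was -1.35 for UCSF033_000201 (SE 0.36), -1.28 for UCSF033_000203 (SE 0.29), -1.51 for UCSF033_000220 (SE 0.20) and -1.42 for UCSF033_000221 (SE 0.34), with n = 2 arrays in each group. Limma called 3 of the 4 lower, all but UCSF033_000201, against 4.42% of tested probes. For UCSF033_000201 the adjusted limma p was 0.0502, just over the threshold. With all 15 arrays (with or without the slide as a block) or normexp on median signal, limma called 0 tested probes lower. Within slides the difference ran from -1.15 to -1.46 on slide 1 and from -1.42 to -1.57 on slide 2. At 42 h, where slide 1 alone has a usable array, the 4 probes differed from the naive array of that slide by -2.86 to -2.48 log2, and limma called 4 of 4 lower, against 10.9% of tested probes. The omitted 42 h array, in a scaling over all 15 arrays, read 0.16, -1.76, -0.65 and 0.00 for the 4 probes in order of ID. The other 42 h array read -0.18, -2.76, -1.52 and -0.53 on that scale, so all 4 probes were higher on the omitted array.

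At 65 h the probes reached their lowest signal. UCSF033_000203 was 12.9-fold below naive, at -3.69 log2 (SE 0.29, n = 2 each), and UCSF033_000220 was 11.1-fold below, at -3.47 (SE 0.20). UCSF033_000201 was at -3.33 (SE 0.36) and UCSF033_000221 at -3.30 (SE 0.34). Slide 1 gave -3.25 to -3.64 and slide 2 gave -3.35 to -3.73. All 4 were among the 15.6% of tested probes called lower by limma at an adjusted p under 0.05. Under this scaling the tested probes as a whole had a median 65 h difference of 0.59 log2, and 17.6% were lower by at least 1 log2.

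Unscaled brightness differed more between naive cells and 65 h than the scaled signal. The 75th percentile itself went from 1802 in naive cells to 577 at 65 h on slide 1, and from 2668 to 1125 on slide 2. Unscaled, the brightness of UCSF033_000201 was 9002 and 10631 on the naive arrays and 299 and 427 on the 65 h arrays of slides 1 and 2. Unscaled differences from naive at 65 h ran from -4.60 to -5.28 log2 over the 4 probes and both slides, against -3.25 to -3.73 after scaling.

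After rest in IL-2 all 4 probes were higher than at 65 h and still below naive. On slide 1, which holds the single day 7 array, they were 2.79 to 2.98-fold above the 65 h array (1.48 to 1.57 log2), while the median of all tested probes on these arrays was -0.11. Against the mean of both 65 h arrays the differences were 1.77 for UCSF033_000201 (SE 0.45), 1.29 for UCSF033_000203 (SE 0.35), 1.499 for UCSF033_000220 (SE 0.25) and 1.69 for UCSF033_000221 (SE 0.42), where the lone day 7 array is given the spread of the remaining groups. These 4 values spread more widely than those within slide 1. All 4 were at least 1 log2 higher, as were 8.16% of tested probes. In the fit 1 of the 4, UCSF033_000220, was called higher, against 0.227% of tested probes. With the slide as a block, limma called all 4 higher, at 1.47 to 1.51 log2, against 3.63% of tested probes. With all 15 arrays, with or without the slide block, and with the replicate block, limma called 0 of the tested probes in this contrast. The count among the 4 was thus 0 in these fits. It was also 0 in 10 of the 13 fits that left out a single array, among them each fit without a naive, 6 h, 24 h or 65 h array.

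The return was incomplete. Day 7 minus 65 h amounted to 47.2% of naive minus 65 h for UCSF033_000201 on slide 1, in log2. The share was 40.6% for UCSF033_000203, 44.1% for UCSF033_000220 and 45.5% for UCSF033_000221. On group means, with the single day 7 array, the shares spread more widely, at 53.0%, 34.9%, 43.2% and 51.2% in order of ID. Against the naive array of the slide the rested cells were lower by 1.73 to 2.16 log2 (3.31 to 4.47-fold). In the fit 3 of the 4 were called lower than naive at day 7, UCSF033_000201 being the exception, against 5.44% of tested probes. With the slide as a block all 4 were called, against 16.4%. With all 15 arrays in the fit 0 of the 4 passed, where 5 of 911 tested probes were called lower. In the limma fit on 14 arrays all 4 had an unadjusted p under 0.05, as had 273 of 882 tested probes.

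After 18 h of restimulation the readings were lower than at day 7. On slide 1 the restimulated array differed from the day 7 array by -0.73 log2 for UCSF033_000201, -0.88 for UCSF033_000203, -0.64 for UCSF033_000220 and -0.72 for UCSF033_000221, where the median of all tested probes was 0.08. Limma called 0 of 882 probes (0.0%) in this contrast, with 78 at an unadjusted p under 0.05, among them 3 of the 4 (all but UCSF033_000203). The restimulated arrays stayed above 65 h, by 0.60 to 0.93 log2 on slide 1 and by 0.43 to 0.53 on slide 2. Between 73.4% and 88.1% of tested probes lay below each of these differences. Limma called 0 of the 4 against 65 h, and 14 of the 882 tested. The unadjusted p there was under 0.05 for 1 of the 4 and for 99 of the 882. The restimulated arrays differed from naive by -3.04 to -2.46 log2 on slide 1 and by -3.20 to -2.88 on slide 2. Limma called 4 of 4 lower than naive, against 15.2% of tested probes. Slide 2 has no day 7 array, so the step from rest to restimulation rests on slide 1 within a slide.

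The 17 probes with IDs between UCSF033_000201 and UCSF033_000221 that are not among the 4 also fell by 65 h and rose by day 7. Their median rise to day 7 was smaller than the rise of any of the 4. Unlike the 4, some were lower at 42 h than at 65 h on slide 1. All 17 have 1 spot, all 17 were tested, and 9 were detected on all 14 arrays. Their difference of 65 h from naive had a median of -3.33 log2 and a range from -3.77 to -2.77. All 17 were higher at day 7 than at 65 h, by a median of 1.03 (0.11 to 1.43), and 16 of 17 were lower after restimulation than at day 7. UCSF033_000202, detected on all 14 arrays, was at -3.77 at 65 h, 0.96 from 65 h to day 7 and -0.33 from day 7 to restimulation. UCSF033_000204, detected on 11 of 14, gave -3.73, 1.16 and -0.51 for the same steps. The listed probes, chosen for that return, had 1.29 to 1.77 from 65 h to day 7.

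The course changed sharply at the ends of this run of IDs. UCSF033_000200 was at -1.62 log2 at 65 h against naive and the next ID, UCSF033_000201, at -3.33. At the other end UCSF033_000222, not among the listed probes, was at -3.36 and the next, UCSF033_000223, at -1.2045. UCSF033_000222 also had 1.81 from 65 h to day 7 and -1.26 from day 7 to restimulation. The 22 probes from UCSF033_000201 to UCSF033_000222 thus ran from -3.77 to -2.77 at 65 h, while the 11 IDs before them ran from -1.62 to -1.37 and the 13 after them from -1.60 to -0.76. Among the other 130 tested probes with 1 spot the lowest was -2.43. This run was drawn after its values were seen and carries no test, and the files do not say what consecutive IDs share.

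Detection differed within the run. Over the 14 of the 22 detected on all 14 arrays, the 65 h difference ran from -3.77 to -3.25 and the day 7 minus 65 h difference from 0.92 to 1.81. Over the 8 that were not above background everywhere, the ranges were -3.73 to -2.77 and 0.11 to 1.16. Some of these readings were held at the floor set for dim signals, -7.42 log2. UCSF033_000211, at -2.77, was at the floor on both 65 h arrays. UCSF033_000212, at 0.11 from 65 h to day 7, was at the floor on the slide 1 array at 65 h. Their falls and returns may therefore be larger than given.

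A course with 65 h at least 1 log2 below naive, day 7 at least 1 log2 above 65 h and day 7 still at least 1 log2 below naive was shared by 14 of the 22 probes from UCSF033_000201 to UCSF033_000222, the 4 listed ones included. It was found in 0 of the other 130 tested probes with 1 spot and in 6 of 730 with more than 1 spot. These shares describe a pattern that the choice of probes fixed for the 4, and the contrasts share the 65 h arrays.

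Over the 8 group means, the 2 probes with more than 1 spot most like the mean course of the 4 were UCSF033_000783 (Pearson r = 0.998) and UCSF033_000475 (r = 0.996), out of 730. The 8 means come from the same 14 arrays and scaling, so r is given without a p. Each has 7 spots per array. UCSF033_000475 was at -3.35 log2 at 65 h against naive, 1.78 from 65 h to day 7 and -1.12 from day 7 to restimulation. UCSF033_000783 gave -3.79, 1.56 and -1.13 for the same steps. On slide 1 UCSF033_000475 read 2.53 in naive cells, -0.83 at 65 h, 0.66 at day 7 and 0.04 after restimulation, and on slide 2 it read 1.93, -1.40 and -0.96 for naive, 65 h and restimulated cells. Its slide 2 values were lower in 6 of 6 groups, by a mean difference of -0.69. The restimulated arrays of UCSF033_000783 were at -5.79 on slide 1 and -5.08 on slide 2, with 65 h at -5.78 and -5.96, so unlike the 4 it was not above 65 h on slide 1. In all 46 of the 730 probes, 6.30%, had r over 0.9 with the mean course of the 4. Among the 148 other probes with 1 spot it was 54, 36.5%, and these 148 include the rest of the run of IDs above.

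Across the 14 arrays the 4 probes followed one another closely, with pairwise Pearson r from 0.939 to 0.999. The points share arrays, slides and scaling, and the probes were chosen for a common course, so these values describe the set and carry no p. The other tested probes with 1 spot had a median of -0.79 log2 at 65 h against naive (41.9% of 148 lower by at least 1 log2). Those 148 include the rest of the run from UCSF033_000201 to UCSF033_000222. Outside that run, the 130 tested probes with 1 spot had a median of 0.04 log2, and 44 were lower by at least 1 log2. Probes with more than 1 spot had a median of 0.71. The part that the single spot per array plays in any of these values was not tested.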

How the data were processed

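The deposited scanner files give each spot's intensity after Feature Extraction took off background and a spatial trend. The version is 10.1.1.1 in the file headers and 10.6 in the submitters' processing notes. Per the labels, total RNA was extracted with Trizol and labelled with Cy3; the series text gives 50 ng. The authors' deposited value table holds log2 values for 2191 probes, with scale and centring unstated, and none for the probes described here, so it was not used.

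Control spots and outlier-flagged spots were left out and spots of a probe averaged. Signals were divided by the 75th percentile of each array over probes detected (more than 50% of spots well above background) on all 14 arrays, floored at 0.583% of it (the 5th percentile of detected values; none of the 4 probes reached it) and taken to log2. Probes detected on both arrays of a group were tested (882 of 2500) with limma 3.58.1 in R 4.3.3, group as the only term, 6 residual degrees of freedom, Benjamini-Hochberg adjustment over all tested probes at 0.05. On simulated data for 65 h against naive over 882 probes, 27% of changes of 1 log2 and 59% of 2 log2 were recovered, and 1.15% of calls were false. No label ties arrays of a group to separate animals or cultures, so p-values may reflect technical spread alone.

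The listed probes, tests and lists were chosen with earlier results of these data known. Besides the 4, the rule named the 2 probes with more than 1 spot most correlated with their mean course and the 2 IDs between UCSF033_000201 and UCSF033_000221 with the largest 65 h difference; UCSF033_000200, UCSF033_000222, UCSF033_000223 and the run of 22 IDs were chosen after values were seen. Marker microRNAs could not be looked up. Slides were read from the file headers. The alternatives changed scaling, background correction, floor, filter, variance model, blocks and arrays.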

Additional observations from a re-analysis of the deposited data

How the results depend on the processing

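All 4 probes were called lower at 65 h than in naive cells under each of the 28 alternatives, replicate block included, and limma called 0 of the 4 after restimulation against day 7 under each of the 27 that give this contrast. At day 7 against naive 3 of the 4 were called; the count was 0 with all 15 arrays and 1 with all 15 arrays and the slide as a block, and 2 to 4 when single arrays were left out (UCSF033_000221 kept the call in 5 of 13 such fits and lost it when an array of naive, 6 h, 24 h or 65 h cells was left out). Against naive the day 7 count was 2 with no scaling, normexp on median signal, no filter on dim probes or the replicate block. It was 4 with the slide as a block, quantile normalization, and the percentile over all probes or over probes with more than 1 spot. At day 7 against 65 h the single call, UCSF033_000220, became 4 with the slide as a block. The count there was 0 with all 15 arrays (with or without that block) and with no scaling. It was also 0 with the percentile over all probes or over probes with more than 1 spot, and with normexp on median signal. The lower floor, the filter to probes detected on all arrays, the replicate block and eBayes with trend and robust gave 0 too. Leaving out single arrays gave 0 to 1 there: the call held in 3 of 13 such fits and was lost when any array of naive, 6 h, 24 h or 65 h cells, the first 12 h array or the second 42 h array was left out. The cause was not tested. At day 7 against 65 h most fits with 0 of the 4 called no tested probe higher. Such a 0 is therefore not particular to the 4. All log2 differences of the 4 probes kept their sign in every fit run except 1 of 116 at 6 h (0.02). Of 1104 such values under the alternatives 95 moved by at least 1 residual SD, 27 of them without scaling. Differences at 65 h ran from -5.13 to -2.84 over all settings, and from 65 h to day 7 from 0.75 to 1.99. The value table could give no alternative, since it holds none of the 4. By Spearman correlation both of the most alike probes stood at 1.0, tied with other probes, so that measure gives no order among them. Deviations of same-numbered arrays correlated from -0.82 to 0.76 across probes, and those of arrays on the same slide from 0.08 to 0.82. These groupings differ only at 65 h and restimulation, where the first replicate lay on slide 2. The comparison therefore cannot exclude a pairing by replicate number. The fit of all 15 arrays with the slide block and the percentile over probes with more than 1 spot were chosen after seeing the data. The 1 spot per probe leaves no technical repeat within an array.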

Other observations

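Large steps in the 65 h difference between neighbouring IDs were few among the probes with 1 spot. Of 136 pairs of consecutive tested IDs the median size of the step was 0.11 log2, and 6 steps exceeded 1 log2. They came at UCSF033_000179 (-2.41), UCSF033_000201 (-1.71), UCSF033_000223 (2.15), UCSF033_000266 (2.23), UCSF033_000288 (-3.46) and UCSF033_000298 (-1.78). The first 3 were 22 IDs apart, as were the fourth and the fifth. Within the run that starts at UCSF033_000201 the largest step was 0.65. These values were looked for after the data were seen and carry no test.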
